A study of Mus musculus with 4 samples.

Results

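The ETS transcription factors Spdef, Ehf, Elf3 and Elf5 were read in the RNA of mouse prostate, in animals that carry a human ERG transgene and in animals that do not. The members were the rows of the deposited expression table with these 4 gene symbols, and all 4 were found among 23242 rows. Libraries came from ventral and dorsal lobes of 4 FVB animals: mice 27 and 28 were wild type and labelled ERG negative, and mice 26 and 29 were homozygous for TMPRSS2:ERG and labelled ERG positive. The transgene is a bacterial artificial chromosome that holds the TMPRSS2 locus, into which a loxP-flanked GFP and exons 4 to 11 of human ERG were placed, and GFP was removed by injecting Cre protein into the pronucleus. The homozygotes descend from 1 sub-line, so the ERG product, the insertion site and other features of that line cannot be told apart. The labels give each library its own mouse and give neither ages nor the share of each lobe.

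ETS factors bind DNA through a shared domain that recognises a GGAA core, and ERG, the factor expressed from the transgene, is one of them. Spdef, Ehf, Elf3 and Elf5 belong to the branch of the family that is found mainly in epithelia. Spdef was described as a prostate-derived ETS factor that prefers a GGAT core and directs the maturation of goblet and other secretory cells. Ehf and Elf3 are epithelial factors of gland, airway, gut and urothelium, and Elf5 is best known for the alveolar cells of the mammary gland, where it acts downstream of the prolactin receptor.

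Values are FPKM (fragments per kilobase of transcript and per unit of library size), divided by a scaling factor for each library and called scaled FPKM below. Where a pair of values is given for a genotype, the order is mouse 27 then 28 for wild types and mouse 26 then 29 for homozygotes. Values are set per length, so that levels of different genes can be compared. The lowest values of genes with a single annotated transcript form a step that places the libraries between 45300000 and 52000000 fragments, an estimate with a log2 bin width of 0.2. At that depth the members correspond to about 1100 to 33800 fragments per library (estimated with each gene's longest coding transcript). The prostate label was checked on its markers: Pbsn, the secreted androgen-dependent protein probasin, lay between 9477 and 14390 scaled FPKM, and the homeobox gene Hoxb13 between 237 and 288. Luminal markers were not all level between genotypes. Of 9 tested, 5 lay above 0 and 4 below, with a median log2 difference of 0.17, and limma called 1, Tmprss2, lower. The highest difference was that of Msmb, at 4240 and 4729 scaled FPKM in wild types and 28100 and 14920 in homozygotes. It was 2.19 and did not pass (SE 0.501, limma adjusted p = 0.0626). The relation of these markers to Spdef was not tested. Most markers of seminal vesicle, a neighbouring gland, differed by genotype far more than any member did. The exceptions among those tested were Pate4 (log2 difference -1.08) and Pax2 (-0.46, less than Spdef or Elf5). Of 12 such markers, 9 had a value in every library. For all 9 the homozygotes lay below the wild types without overlap, against 25.8% of all genes tested. Their median log2 difference was -7.07. Limma called 6 of them lower (Svs1, Svs3a, Svs3b, Svs6, Sva and Spinkl). Svs1, which encodes a secreted protein of that gland, was at 3421 and 236 scaled FPKM in wild types and at 3.83 and 1.05 in homozygotes (log2 difference -8.16, SE 1.21, limma adjusted p = 0.0173). For most of these markers the wild types themselves were far apart, with mouse 27 well above mouse 28, while Pax2 was at 2.78 and 3.22 scaled FPKM in them. The 9 markers summed to 42714 and 11082 scaled FPKM in wild types and to 4352 and 8185 in homozygotes, and in homozygotes Pate4 made up 4318 and 8148 of these sums. None of the 9 was at 0. Markers without a value in every library were Svs2, missing in all 4, and Svs4 and Svs5, missing in mouse 27. Svs4 was at 2337 scaled FPKM in wild-type mouse 28 and at 190.5 and 292.2 in homozygotes. Svs5 was at 20310 in mouse 28 and at 6311 and 11690 in homozygotes. Between 3 and 8 markers were called lower with a library left out, and 0 with no filter or with a robust trend. Their part in the values of the members was not tested. In whole tissue, fewer cells of a type and less RNA per cell cannot be told apart.

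The promoters of the member that rose and of 2 that did not are shown because ERG and the members themselves bind ETS cores. RefSeq windows (GRCm38.p6) were matched for 3 of the 4 members. Each sequence is the 250 bases before the annotated start, 5′ to 3′ on the gene's strand, from the reference strain and not from FVB, with every GGAA and its complement TTCC in capitals. The windows are chr17:27728952-27729201 (minus strand) for Spdef, chr1:135258473-135258722 (minus strand) for Elf3 and chr2:103411848-103412097 (plus strand) for Elf5.
Spdef: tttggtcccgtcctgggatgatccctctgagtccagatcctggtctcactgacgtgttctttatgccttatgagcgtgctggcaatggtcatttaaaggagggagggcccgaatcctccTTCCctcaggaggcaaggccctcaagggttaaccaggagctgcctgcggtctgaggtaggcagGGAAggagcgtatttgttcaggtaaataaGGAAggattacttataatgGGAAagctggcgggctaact
Elf3: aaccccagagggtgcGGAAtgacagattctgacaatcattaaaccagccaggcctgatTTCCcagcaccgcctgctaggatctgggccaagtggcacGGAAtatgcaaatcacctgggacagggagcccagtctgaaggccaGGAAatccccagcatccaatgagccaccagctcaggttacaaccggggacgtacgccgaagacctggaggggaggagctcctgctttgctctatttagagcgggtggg
Elf5: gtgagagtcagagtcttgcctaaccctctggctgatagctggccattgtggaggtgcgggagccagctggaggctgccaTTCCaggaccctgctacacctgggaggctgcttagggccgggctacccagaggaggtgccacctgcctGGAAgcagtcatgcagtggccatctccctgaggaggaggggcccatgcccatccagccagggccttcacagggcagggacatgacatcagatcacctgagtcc

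Searched on both strands, GGAA occurred 4 times in the Spdef window, at 131, 68, 39 and 20 bases before the start, 4 times in that of Elf3 and 2 times in that of Elf5. RefSeq lists another start of Elf5, at 103424068, whose window is not shown and holds 1 GGAA and 1 GGAT. Such cores are common: 93.4% of 32851 RefSeq windows of the same length hold at least 1, with a median of 3. The longer string AGGAAG occurred 1 time in the Spdef window, 40 bases before the start and overlapping the GGAA there, against 29.5% of all windows with at least 1, and it was not found in the Elf3 and Elf5 windows shown. CGGAAG was in none of the 3 and in 13.6% of all windows. GGAT occurred 5 times in the Spdef window, 3 times in that of Elf3 and 1 time in that of Elf5. For GGAT, 74.1% of all windows hold at least 1, and 3 marks the 90th percentile of the number per window. These are matches of letters only, and binding was not measured.

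The comparison of genotypes asks whether the epithelial ETS factors of the gland differ where ERG is expressed. Spdef was 1.90 times as high in homozygotes, and it was the member that passed the test. Ehf, Elf3 and Elf5 all lay lower on average in homozygotes, by 0.33 to 0.68 on the log2 scale, and none of these differences passed. The test was limma on log2(scaled FPKM + 1) over 11762 genes, of which 7.65% were called at a Benjamini-Hochberg adjusted p under 0.05 (4.65% higher and 3.00% lower in homozygotes), and 1 of the 4 members was called, higher. Genotypes did not overlap in 3 of the 4 members, 1 higher and 2 lower, against 51.1% of genes tested (25.3% higher and 25.8% lower).

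Spdef (Entrez 30051, mm10 chromosome 17, 27714447 to 27728951, minus strand) was at 20.1 and 20.7 scaled FPKM in wild types and at 40.7 and 37.1 in homozygotes. Both homozygotes were above both wild types, and within each genotype the libraries differed by at most 1.10 times. The wild-type mean was 20.4 ± 0.389 scaled FPKM (SD, n = 2) and the homozygote mean 38.9 ± 2.59 (SD, n = 2), a ratio of 1.90. The log2 difference was 0.90 (SE 0.106, 95% interval 0.63 to 1.16, limma adjusted p = 0.00848). The exact permutation test, two-sided, gave p = 0.333, the smallest that 2 mice against 2 allow. Without mouse 26 the difference was 0.83 and no longer passed (limma adjusted p = 0.0874), with the lone homozygote assumed to vary like the wild types. The q-value of Spdef in the authors' deposited table is 1.2e-05, beside a log2 fold of 0.98.

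**Figure D1:**
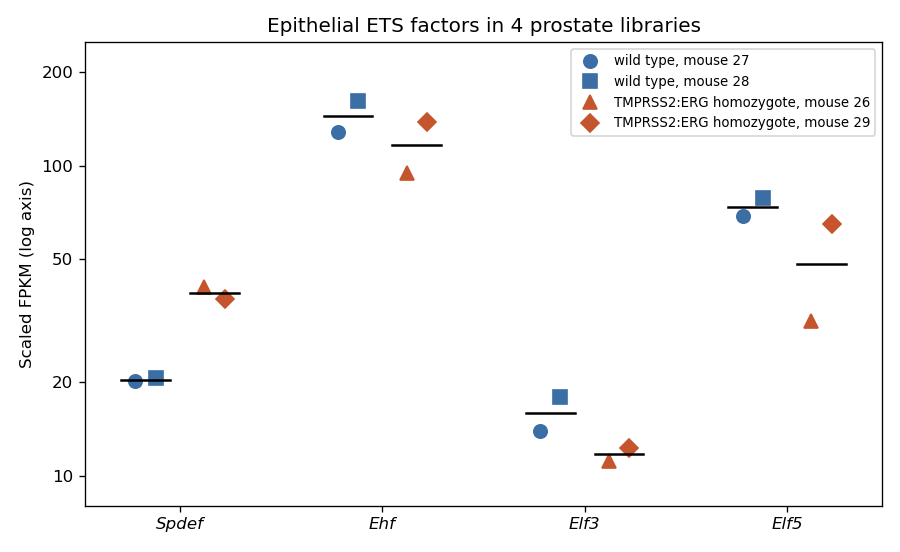
Scaled FPKM (log axis) of Spdef, Ehf, Elf3 and Elf5 in each library, with wild types in blue, homozygotes in orange and black bars at the group means (n = 2). Spdef sits at 20.1 and 20.7 in wild type and at 40.7 and 37.1 in homozygotes, while Ehf, Elf3 and Elf5 are each lowest in mouse 26 and highest in mouse 28.

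Ehf (Entrez 13661, chromosome 2, 103263433 to 103303196, minus strand) was at 128 and 162 scaled FPKM in wild types and at 94.6 and 138 in homozygotes. The genotypes overlapped, since homozygous mouse 29 lay above wild-type mouse 27. The log2 difference was -0.33 (SE 0.223, 95% interval -0.89 to 0.22, limma adjusted p = 0.487). This interval includes no change. Without mouse 26 the difference was -0.06.

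Elf5 (Entrez 13711, chromosome 2, 103412098 to 103450988, plus strand) was at 68.6 and 78.4 scaled FPKM in wild types and at 31.5 and 64.8 in homozygotes. Both homozygotes lay below both wild types, but they differed from each other by 2.06 times, more than mouse 29 differed from either wild type. The log2 difference was -0.68 (SE 0.325, 95% interval -1.49 to 0.12, limma adjusted p = 0.313). It was -0.17 without mouse 26 and -1.19 without mouse 29, each time with the lone homozygote assumed to vary like the wild types.

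Elf3 (Entrez 13710, chromosome 1, 135253574 to 135258472, minus strand) was at 13.9 and 17.9 scaled FPKM in wild types and at 11.1 and 12.3 in homozygotes. Both homozygotes lay below both wild types, and the wild types differed by 1.29 times. The log2 difference was -0.41 (SE 0.148, 95% interval -0.77 to -0.04, unadjusted p = 0.0358 and adjusted p = 0.194 by limma). It was -0.58 without mouse 27 and -0.23 without mouse 28, each time with the lone wild type assumed to vary like the homozygotes. The authors' deposited table calls Elf3 lower in homozygotes, with a log2 fold of -0.43 and a q-value of 4.48e-06, in a table where 14.2% of genes with a q-value are under 0.05. GENCODE M21 places an antisense gene, Gm26642, over Elf3. No source used here says whether strand was used, so reads of the pair may not be separated.

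Elf3 and Elf5 ranked the 4 libraries in the same order, with mouse 26 lowest, then mice 29, 27 and 28, and Ehf shared its lowest and highest mouse with them. A lowest value in mouse 26 and a highest in mouse 28, a pattern noticed in the values, was also found in 14.9% of all genes tested. Spdef was lowest in mouse 27 and highest in mouse 26. Markers of urothelium, an epithelium that expresses Ehf and Elf3, were also read. Of 7 such genes, 6 ranked the libraries as Ehf did, and the exception was Upk1a, the most abundant of them. The order of Ehf was found in 5.61% of all genes tested. Setting the 2 side by side is no test, since the order was taken from Ehf and markers of 1 cell type can vary together. The order of Ehf is also not that of Elf3 and Elf5, in which mouse 29 lay below mouse 27. The umbrella-cell gene Upk2 was at 2.64 scaled FPKM in mouse 26, 4.62 in mouse 27, 9.93 in mouse 29 and 42.9 in mouse 28, the order of Ehf. The 7 urothelial markers summed to 314 and 641 scaled FPKM in wild types and to 430 and 405 in homozygotes, none was at 0, and 0 of 7 were called by limma (lowest adjusted p = 0.495, for Upk1b; 0 at an unadjusted p under 0.05), while 6 of the 7 have a q-value under 0.05 in the authors' deposited table. Without mouse 27 limma called 6 of the 7 lower, with a median of -1.96, and without mouse 28 it called 0 of the 6 then tested and the median turned to 0.43. Their part in the values of Ehf, Elf3 and Elf5 was not tested.

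Ehf and Elf5 are neighbours, with 109 kb between their rows and the unexpressed A930006I01Rik, listed at 0 in every library, in the gap. Within 500 kb of the pair the table has 12 rows, of which 8 were tested. Mouse 26 was the lowest library in 2 of those 8, Ehf and Elf5 themselves. Neither of the nearest tested neighbours on either side was called: Apip, a methionine salvage enzyme, had a log2 difference of -0.05 (limma adjusted p = 0.903), and Cat, which encodes catalase, one of -0.07 (limma adjusted p = 0.790). Cd44, the hyaluronan receptor gene on the Ehf side of the window, was the row there that was called, and it rose from 3.69 and 5.82 scaled FPKM in wild types to 23.0 and 22.8 in homozygotes (limma adjusted p = 0.00350).

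Ratios between members within a library do not depend on scaling, and they changed most where Spdef was one of the pair. The log2 ratio of Spdef to Elf3 was 0.53 and 0.20 in wild types and 1.86 and 1.59 in homozygotes, a difference of 1.36 between genotype means. For Spdef to Ehf the difference was 1.26, and for Spdef to Elf5 it was 1.62, with the genotypes apart in both. The spread between homozygotes was wide for the last of these, 0.37 in mouse 26 and -0.81 in mouse 29. Ehf to Elf3 stayed near 3.2 in every library (3.19, 3.17, 3.08 and 3.48 in mice 27, 28, 26 and 29), and its difference of 0.10 was smaller than the SD of 0.286 between the homozygotes. Elf3 to Elf5 differed by 0.26 with overlapping genotypes, and Ehf to Elf5 by 0.36 with genotypes that did not overlap. Exact permutation tests over the 6 pairs gave p = 0.333 for the 4 pairs whose genotypes did not overlap and p = 1 for the others, and the Benjamini-Hochberg adjusted values were 0.5 and 1.

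**Figure D2:**
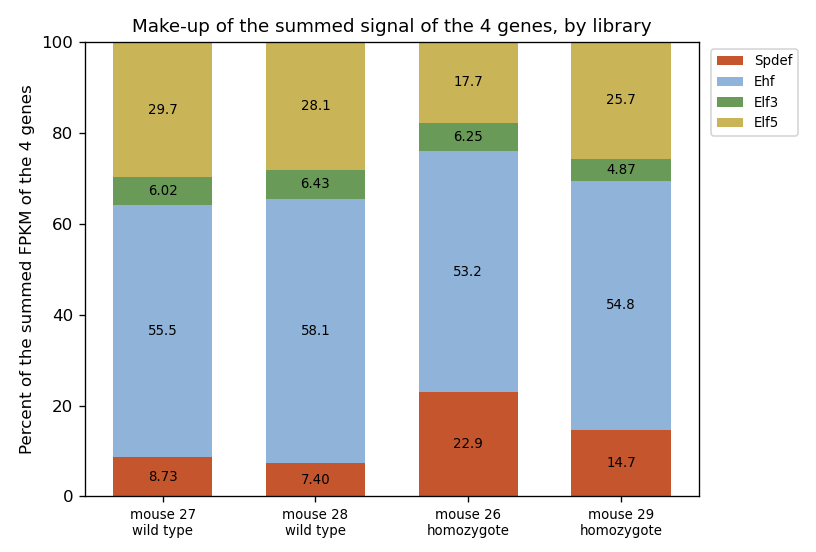
Share of each member in the summed FPKM of the 4 genes (percent, vertical axis), 1 stacked bar per library. Spdef takes 8.73% and 7.40% in wild types and 22.9% and 14.7% in homozygotes, and Elf5 takes 17.7% in mouse 26 against 25.7% to 29.7% in the other libraries.

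As shares of the summed FPKM of the 4 genes, Spdef made up 8.73% and 7.40% in wild types and 22.9% and 14.7% in homozygotes. Ehf kept the largest share in every library, between 53.2% and 58.1%. Elf3 held between 4.87% and 6.43%. Mouse 26 combined the highest Spdef share with the lowest Elf5 share, 17.7%, and it was the library in which Spdef stood above Elf5 in level.

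Set among the ETS family, the members made up most of the transcript signal. All 22 other ETS genes searched were in the table. The 4 members together made up 70.5% and 70.9% of the summed scaled FPKM of the 26 ETS genes in wild types and 61.5% and 68.6% in homozygotes. By mean level over the 4 libraries the order was Ehf (131 scaled FPKM), Elf5 (60.8), Spdef (29.6), Ets2 (24.7), Elf1 (18.9) and Elf3 (13.8), followed by Elf2 (11.4). Ehf was above Elf5 in every library with no overlap of their ranges. The ranges of Elf5 and Spdef overlapped, as did those of Spdef and Ets2, and in both pairs the first gene was higher in 3 of the 4 libraries. The order of these pairs is therefore not settled. The ranges of Ets2 and Elf1, of Elf1 and Elf3 and of Elf3 and Elf2 overlapped too. Compared within each library, however, the first gene of each of these pairs was higher in all 4. Spdef lay within the range of Ets2 in wild type, where Ets2 was at 19.9 and 28.7 scaled FPKM, and above it in both homozygotes, where Ets2 was at 27.1 and 23.2. Mouse Erg itself averaged 0.998 scaled FPKM, the 21st of the 26, and was just under the filter. Transcripts of the human ERG exons were not analysed here.

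**Figure D3:**
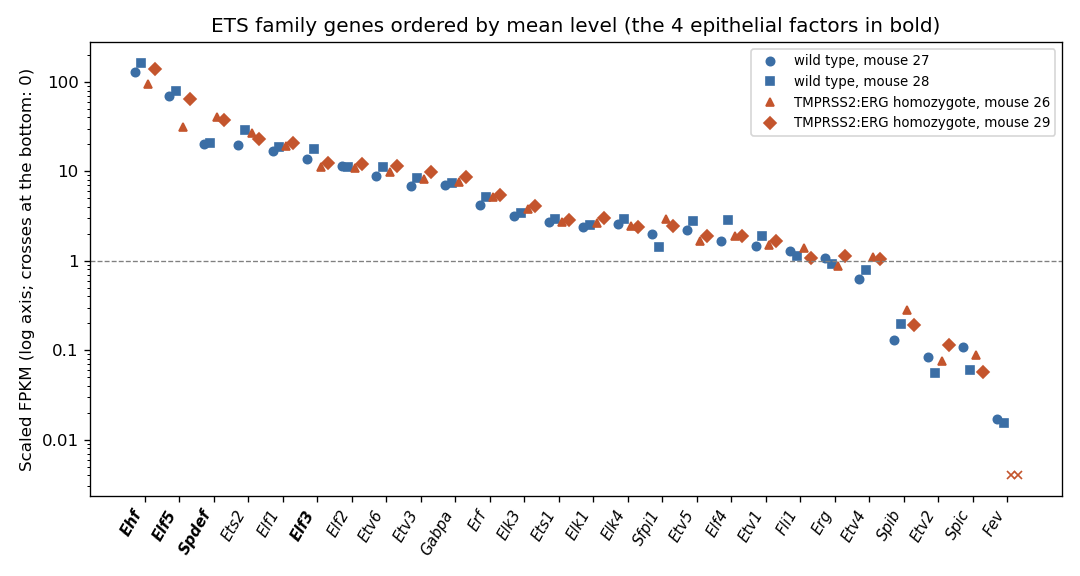
Scaled FPKM (log axis) of 26 ETS genes in each library, ordered by mean level, with wild types in blue, homozygotes in orange and a dashed line at 1 scaled FPKM. Ehf leads in all 4 libraries, and Spdef rises from 20.1 and 20.7 to 40.7 and 37.1, above Ets2 in both homozygotes.

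Of the 16 other ETS genes that passed the filter on low values (a mean of at least 1 scaled FPKM), 0 were called by limma, 2 had an unadjusted p under 0.05, and 0 had a q-value under 0.05 in the authors' deposited table. Their differences ran from -0.34 (Etv5) to 0.43, with a median of 0.09, against a median of -0.003 for all genes tested. The largest belonged to the macrophage and B-cell factor Spi1 (listed as Sfpi1), at 2.01 and 1.43 scaled FPKM in wild types and 2.90 and 2.43 in homozygotes (log2 difference 0.43, SE 0.156, limma adjusted p = 0.188). Beside it, the leukocyte gene Laptm5 rose by 0.85 (SE 0.121, limma adjusted p = 0.0152), 1 of 8 leukocyte markers tested to be called. The 8 had a median difference of 0.51. For 5 the homozygotes lay above the wild types without overlap (each at an unadjusted p under 0.05), and for 0 they lay below. Over all genes tested these shares were 25.3% and 25.8%. Without mouse 27 limma called 6 of the 8 higher, and without mouse 26 or mouse 29 it called 0. The summed level of the 10 leukocyte markers overlapped between genotypes, at 1090 and 467 scaled FPKM in wild types and 453 and 553 in homozygotes. It is mostly Cd52, which was at 994.8 in mouse 27, 411 in mouse 28, 340.5 in mouse 26 and 453.2 in mouse 29. The part of leukocytes in the value of Spi1 was not tested.

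The epithelial setting of the members was read from 2 lists. Of 17 epithelial surface and junction genes, 1 rose and none fell, against 4.65% and 3.00% of all genes tested. The median difference was 0.05. An unadjusted p under 0.05 was found for 5, and 2 had a q-value under 0.05 in the authors' deposited table. Spint2 (0.73), Cldn4 (0.49), Marveld2 (0.32) and Krt19 (-0.52) were among the 5 and did not pass after adjustment. The gene that rose was Epcam, a surface protein of simple epithelia, from 263 and 245 scaled FPKM in wild types to 442 and 437 in homozygotes (log2 difference 0.79, SE 0.144, limma adjusted p = 0.0328). Krt8, a keratin of luminal cells, had a difference of -0.19 (SE 0.132, limma adjusted p = 0.509). The log2 ratio of Spdef to Epcam differed by 0.14 between genotypes (exact permutation p = 0.333), and that of Spdef to Krt8 by 1.12 (exact permutation p = 0.333). Scaled on this whole list instead of all genes, Spdef was at 22.2 and 20.3 in wild types and at 39.5 and 35.3 in homozygotes. Its difference was then 0.79 and still passed (limma adjusted p = 0.0257), while the call of Epcam was lost, as it was under 5 of the 12 alternatives fitted, among them leaving out mouse 26, 28 or 29. On the same scale Elf3 had a difference of -0.51 (limma adjusted p = 0.0794), Elf5 one of -0.79 (limma adjusted p = 0.227) and Ehf one of -0.44 (limma adjusted p = 0.318).

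Of 18 tested regulators of epithelial and prostate identity, 0 were called by limma at the reported settings (2 at an unadjusted p under 0.05, and 1 by q-value in the authors' deposited table), with a median of 0.03. The pioneer factor gene Foxa1 did not pass (0.10, SE 0.182, limma adjusted p = 0.833), nor did the epithelial factor gene Grhl2 (-0.07, SE 0.174, limma adjusted p = 0.874). Outside these 18, the luminal marker Tmprss2, the mouse's own androgen-regulated protease gene (mm10 chromosome 16), fell by 0.75 (SE 0.118, limma adjusted p = 0.0209). This call was lost under 3 alternatives, among them leaving out mouse 26 or 29. The TMPRSS2 locus carried by the transgene was not read separately. All 5 basal cell markers lay above 0, with a median difference of 0.45. An unadjusted p under 0.05 was found for 2, Krt14 (0.46) and the integrin subunit gene Itga6. Limma called 1 of the 5, Itga6, higher (0.70, SE 0.142, limma adjusted p = 0.0456), against 4.65% of all genes tested. That call was lost under 6 of the 12 alternatives, among them leaving out mouse 26 or 29, while without mouse 28 all 5 basal markers were called higher. Of 10 markers of stroma and smooth muscle 0 were called by limma or in the authors' deposited table and 5 had an unadjusted p under 0.05, the nearest being the desmin gene Des at -0.83 (limma adjusted p = 0.0977). With quantile normalization 2 of the 10 were called lower, and without mouse 28 it was 4. The stromal markers summed to 2604 and 1949 scaled FPKM in wild types and to 1487 and 1619 in homozygotes. These sums are mostly Acta2, Tagln, Des, Cnn1 and Myh11, genes of smooth muscle. The median difference was -0.48. For 6 of the 10 the homozygotes lay below the wild types without overlap, against 25.8% of all genes tested. The genotypes overlapped for Col1a1 (-0.08), Col1a2 (0.07), Dcn (0.12) and Pdgfra (-0.13). The part of the stromal markers in the rise of Spdef was not tested. Of 8 endothelial markers 0 were called by limma, 2 had an unadjusted p under 0.05 and 1 had a q-value under 0.05 in the authors' deposited table. Their median difference was -0.18, with 7 below 0 and 1 above. For 5 of the 8 the homozygotes lay below the wild types without overlap, and for 1 they lay above. Over all genes tested these shares were 25.8% and 25.3%. The smallest p was that of Egfl7, the marker above 0 (0.34, SE 0.107, limma adjusted p = 0.147). Cdh5, the other marker with an unadjusted p under 0.05, lay lower (-0.32, SE 0.116, limma adjusted p = 0.194). Of 2 neuroendocrine markers tested 0 were called by limma, 0 had an unadjusted p under 0.05 and 1 had a q-value under 0.05 in the authors' deposited table, and the smaller p was that of Syp (-0.63, SE 0.532, limma adjusted p = 0.588).

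Genes linked to Spdef in goblet and other secretory cells formed a list of 20. Of these, 18 were in the table and 7 were tested. Limma called 2 higher and none lower, against 4.65% and 3.00% of all genes tested. The median difference was 0.62, with 5 above 0 and 2 below, and 4 had an unadjusted p under 0.05. Creb3l1, a membrane-bound transcription factor of secretory capacity, rose from 19.1 and 31.7 scaled FPKM in wild types to 103 and 106 in homozygotes (log2 difference 2.04, SE 0.232, limma adjusted p = 0.00740). Galnt12, which starts mucin-type O-glycans, rose from 0.547 and 0.873 to 1.97 and 2.78 (log2 difference 0.98, SE 0.177, limma adjusted p = 0.0322), and passed the filter on low values through the homozygotes. The call of Creb3l1 was kept under all 12 alternatives fitted, while that of Galnt12 was lost under 4, among them leaving out mouse 29. Agr2, a protein disulfide isomerase of mucous cells, was at 602 and 391 in wild types and 936 and 782 in homozygotes, a difference of 0.82 that did not pass (SE 0.262, limma adjusted p = 0.149). Serpinb5, or maspin, had a difference of 0.62 (SE 0.169, limma adjusted p = 0.0994), and Fcgbp one of 0.16. The other tested genes lay lower on average without passing: the trefoil factor gene Tff3 at -0.94 (SE 1.05), with 0 in mouse 29 and 10.1 scaled FPKM in mouse 26, and Clca2 at -0.27 (SE 0.344). Without mouse 26, and likewise without mouse 27, 1 gene of the list was called lower. The goblet cell mucin gene Muc5ac was listed at 0 in every library, Muc5b was at most 0.00246 scaled FPKM, and the partner factor Foxa3 was at most 0.0439.

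Genes linked to Elf5 were taken from its role in the mammary gland. The milk protein genes Wap, Csn1s1, Csn2 and Csn3 were listed at 0 in every library. Over all genes tested 3.00% were called lower and 4.65% higher. Of 8 tested genes of this list 1 fell and none rose, with 4 above 0, 4 below 0 and a median of -0.06. That gene was Prlr, the prolactin receptor, at 41.9 and 48.7 scaled FPKM in wild types and at 13.4 and 15.1 in homozygotes (log2 difference -1.60, SE 0.126, limma adjusted p = 0.00210). Both homozygotes were low, and they differed from each other far less than they did in Elf5. The Stat5 genes that signal below it lay below the wild types in both homozygotes and did not pass: Stat5a at -0.41 (SE 0.125, limma adjusted p = 0.137) and Stat5b at -0.43 (SE 0.118, limma adjusted p = 0.1004). Kit, a receptor of luminal progenitors, and Snai2 lay above the wild types in both homozygotes, at 0.42 (SE 0.144, limma adjusted p = 0.1702) and 0.27 (SE 0.138, limma adjusted p = 0.348), and did not pass either. Without mouse 27 the list had 3 genes called lower, and without mouse 28 it had 1 called higher. Gata3, a luminal progenitor factor, had a difference of 0.20 (limma adjusted p = 0.634).

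Among reported targets of Elf3 and Ehf, 10 of 17 were tested, 1 fell and none rose, with a median of -0.11. The shares over all genes tested were 3.00% called lower and 4.65% higher. Krt4, a keratin of stratified epithelia, fell from 39.8 and 72.5 scaled FPKM in wild types to 20.3 and 19.1 in homozygotes (log2 difference -1.40, SE 0.273, limma adjusted p = 0.0394). This call was lost under 5 of the 12 alternatives, among them leaving out mouse 26 and leaving out mouse 29. Cldn7, a tight junction gene, had a difference of -0.02 (SE 0.112, limma adjusted p = 0.959), and Tgfbr2, a receptor of TGF-beta, had a difference of -0.23 (SE 0.141, limma adjusted p = 0.442).

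**Figure D4:**
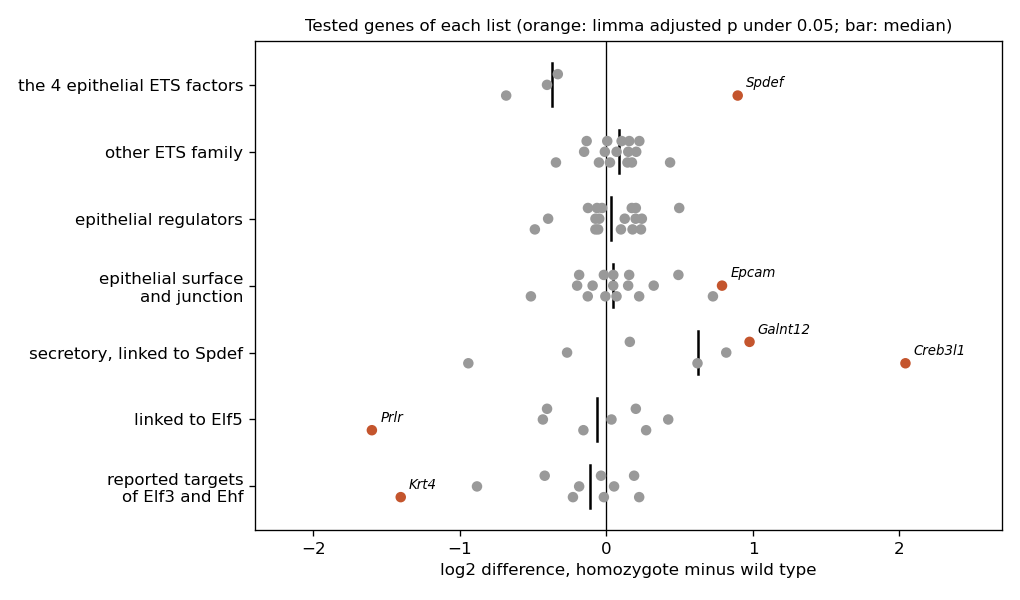
Log2 difference, homozygote minus wild type, of every tested gene in each list (horizontal axis), 1 point per gene, with called genes named in orange and the list median as a black bar. Spdef stands at 0.90 apart from the other 3 epithelial ETS factors, and the other ETS genes lie between -0.34 and 0.43.

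The genes whose 4 values ran most like those of Spdef were ranked by Euclidean distance over the 4 libraries, in log2(scaled FPKM + 1) centred on each gene's mean. The nearest 5 of 11762 were Smpdl3b (distance 0.022), Rras (0.057), Pllp (0.0677), Gas6 (0.0678) and B3gnt3 (0.0706). Rras, a small GTPase gene of higher level, was at 40.9 and 39.9 scaled FPKM in wild types and 77.9 and 72.2 in homozygotes. With 4 libraries such likeness mainly restates the split by genotype.

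**Figure D5:**
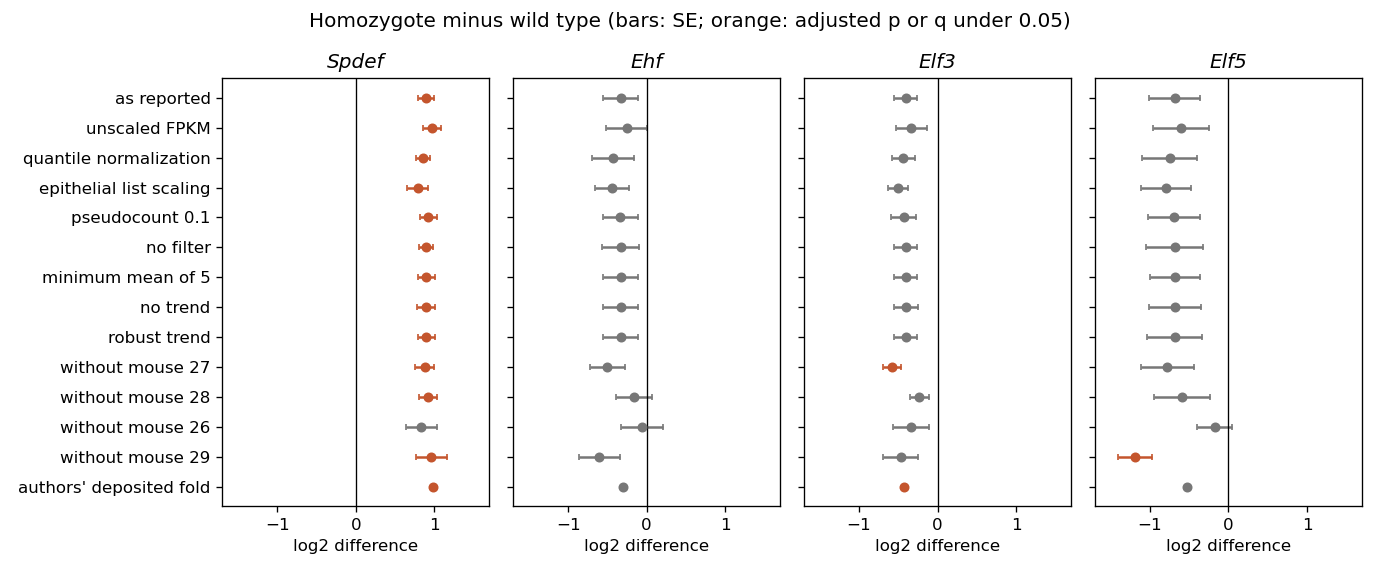
Log2 difference, homozygote minus wild type, of each member (horizontal axis, bars for the SE) as reported, under each alternative and in the authors' deposited table, with values under an adjusted p or q of 0.05 in orange. Spdef stays between 0.79 and 0.98 and misses the threshold without mouse 26, while Ehf and Elf5 come close to 0 without mouse 26.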

How the data were processed

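RNA was sequenced from prostate lobes of 4 mice, 2 per genotype, grouped by the labels. The RNeasy Plus kit and standard Illumina library steps were used, per the labels' protocols. Values in the deposited table are FPKM, 1 per gene and library, a unit read from the numbers themselves. TopHat 1.3, Cufflinks 1.3 and build mm10 are named in the submitters' processing notes; no source used here gives their settings, the annotation or the strand. The authors' deposited log2 fold, p-value and q-value are in the same table, per the file headers. The top value, 99999, was read as a code and treated as missing (7 genes). Starts were raised by 1.

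FPKM were divided by median-of-ratios factors (0.921, 1.03, 1.01 and 1.04 for mice 27, 28, 26 and 29) computed on genes that reach 1 FPKM in all libraries. Genes that average 1 scaled FPKM or more were tested with limma 3.58.1 in R 4.3.3 on log2(scaled FPKM + 1) (trend, two-sided, Benjamini-Hochberg, threshold 0.05), so that changes of low genes come out too small. Residual degrees of freedom were 2, with 3.62 added by the prior. The fit was tested on simulated data. Within-library ratios used FPKM + 0.1 (no addition for Epcam and Krt8) and exact permutation over 6 arrangements.

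The members and gene lists were chosen with earlier results of these data known. Named genes are the members, called list genes, the smallest p of a list without calls (for the epithelial regulators it is not reported here), and the 5 genes nearest to a called member; others were chosen after their values were seen. The alternatives tried were no scaling, quantile normalization, scaling on epithelial genes, another pseudocount (0.1), filter (none, or a mean of 5) or variance trend (none, or robust), leaving out each library in turn, and the authors' call.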

Additional observations from a re-analysis of the deposited data

How the results depend on the processing

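Spdef kept its direction in every alternative run, from 0.79 with scaling on epithelial genes to 0.98 in the authors' deposited table, and lost its call without mouse 26. With each library left out in turn, Spdef ranged from 0.83 to 0.96, Ehf from -0.60 to -0.06, Elf3 from -0.58 to -0.23 and Elf5 from -1.19 to -0.17. Elf3 passed in the authors' deposited table (log2 fold -0.43). It also passed without mouse 27, as Elf5 did without mouse 29. Such fits leave a lone mouse in a genotype, with its spread taken from the other genotype. The causes were not tested. The number of genes called, 900 as reported, ranged from 355 without mouse 26 to 2028 without mouse 27, and the authors' deposited table holds 2034. The ratio of Ehf to Elf3 ranged from -0.10 without mouse 29 to 0.30, and that of Elf3 to Elf5 from -0.18 without mouse 26 to 0.71, so neither has a settled direction; the other 4 ratios kept theirs. With scaling on epithelial genes the median of all genes tested moved to -0.10, and calls were 390 higher and 445 lower, against 547 and 353 as reported; unscaled, they were 500 and 185. Among the other ETS genes, 1 was called without mouse 27 and 0 in the other alternatives. No paired analysis was possible because the genotypes share no mouse numbers.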
